A study of Mus musculus with 12 samples.

Results

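The genes described here are 45 collagen, extracellular matrix and stellate cell genes, read in liver RNA of mice that express a Fra-1 or a Fra-2 transgene and of their littermates. They were taken from the deposited gene count table by symbol, and each of the 45 symbols matched a row among its 55421 rows. They comprise 6 fibrillar collagens, 4 other matrix collagens, 7 basement membrane genes, 4 proteoglycans, 8 elastic fibre and microfibril genes, 7 adhesive and matricellular glycoproteins, 2 contractile genes, 6 stellate cell and pericyte markers and the ligand Tgfb1. RNA sequencing was done on livers of adult male C57BL/6 mice in 4 groups of 3: Fra1hep mutants, Fra1hep controls, Fra2hep mutants and Fra2hep controls, below called Fra1 mutants, Fra1 controls, Fra2 mutants and Fra2 controls. Both proteins, Fra-1 from Fosl1 and Fra-2 from Fosl2, are subunits of the transcription factor AP-1. In mutants the transgene was switched on by taking doxycycline away at weaning, at 3 weeks of age. Controls were littermates from the same cage that had the same doxycycline withdrawal. No source used here names the promoter that drives either transgene. Titles and design text place all 12 livers 2 months after induction, but treatment is labelled as 9 months for the 3 Fra2 mutants and as 2 months for their controls. In every Fra2 comparison below, the transgene and an age difference of that size cannot be told apart from the labels alone.

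Hepatic stellate cells sit between hepatocytes and the sinusoidal endothelium, store retinoids and are the main source of collagen in an injured liver. On activation, which transforming growth factor beta and platelet-derived growth factor promote, they lose retinoid and gain fibrillar collagen and smooth muscle actin. Fibrillar collagens form the tensile fibres of a scar, whereas type IV collagen, laminins and nidogen form basement membrane, which is sparse along healthy sinusoids and complete around bile ducts and vessels. Some matrix genes, Fn1 and Col18a1 among them, are made in large amount by hepatocytes themselves.

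The libraries held 16834041 to 20464807 counts, and a filter on low counts kept 14076 genes, among them all 45 matrix and stellate genes. Values are CPM, that is, counts divided by library totals in units of 1e6 after scaling by TMM factors. Fosl1 stood at 9.41 to 12.8 CPM in Fra1 mutants and at 0 to 0.0538 CPM in Fra1 controls. Fosl2 stood at 398 to 421 CPM in Fra2 mutants and at 12.2, 48.1 and 16.0 CPM in Fra2 controls. Fra2 control 2 was thus above the other two for Fosl2, and Fra2 control 1 had 11 Fosl1 counts, against 0 to 1 in Fra1 controls. For a part of the 45 genes, results that rest on the Fra2 controls are therefore also given without these 2 libraries where the call or the direction changes. The remaining genes were not followed singly in that fit, and some of them turned as well. Fits without both keep Fra2 control 3 as the 1 Fra2 control, which is assumed to vary like the other groups. Summed markers of hepatocytes reached 54714 to 130892 CPM over the 12 livers, and all 6 stellate and pericyte markers were detected in each of them, as the tissue label has it. In whole liver, fewer cells of a type and less RNA per cell cannot be told apart.

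Promoter windows of RefSeq on GRCm38.p6, 250 bases before to 50 after a gene's start, were read for 33 of the 45 genes and gave 41 windows. The other 12 genes had no window, among them Lamc1, Dcn and Lum, which were called in Fra1 mutants. TGANTCA, in which N is any base, was taken as a pattern for AP-1 dimers, and TGACGTCA for ATF-containing dimers. Both were searched on both strands, they share no sequence of full length, and a match is only a description of the letters. TGANTCA stood in 2 of the 41 windows (4.88%), against 2565 of 32851 windows of all genes (7.81%). TGACGTCA stood in 1 of 41 (2.44%), against 1.79% of all windows. The TGANTCA matches lay in Col6a1 (TGACTCA), 90 bases before the start, and in Efemp1 (TGAATCA), 154 bases before it. The TGACGTCA match lay in 1 of the 2 windows of Ltbp1, 73 bases before the start. Of the windows below, Col6a1 is shown for its match, in capitals, and because its values in the mutants of the strains lay on opposite sides of their controls. Nid1 is shown because it had the largest rise in Fra1 mutants, and Col5a3 because it was the gene called in Fra2 mutants. Col6a1 is at chr10:76725995-76726294 on the minus strand, Nid1 at chr13:13437352-13437651 on the plus strand and Col5a3 at chr9:20815018-20815317 on the minus strand.
Col6a1: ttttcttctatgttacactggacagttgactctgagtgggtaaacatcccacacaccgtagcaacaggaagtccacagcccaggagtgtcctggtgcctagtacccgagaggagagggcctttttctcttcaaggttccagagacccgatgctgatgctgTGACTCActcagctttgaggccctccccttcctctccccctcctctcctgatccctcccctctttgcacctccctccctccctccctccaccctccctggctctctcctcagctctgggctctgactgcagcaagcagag
Nid1: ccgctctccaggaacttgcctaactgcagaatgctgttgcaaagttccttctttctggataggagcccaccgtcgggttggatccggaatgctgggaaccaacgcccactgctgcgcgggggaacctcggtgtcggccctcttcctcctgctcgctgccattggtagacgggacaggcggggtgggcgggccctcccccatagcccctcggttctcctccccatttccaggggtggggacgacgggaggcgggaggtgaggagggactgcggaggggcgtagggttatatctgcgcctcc
Col5a3: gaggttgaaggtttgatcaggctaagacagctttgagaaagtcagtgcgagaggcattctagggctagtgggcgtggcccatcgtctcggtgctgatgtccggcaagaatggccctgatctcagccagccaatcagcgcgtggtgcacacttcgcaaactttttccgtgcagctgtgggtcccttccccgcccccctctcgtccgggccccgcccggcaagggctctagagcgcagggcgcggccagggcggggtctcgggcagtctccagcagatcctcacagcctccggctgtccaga

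Per length, the 45 genes spanned 4 orders of magnitude in the 6 control livers. Col18a1, which encodes the basement membrane collagen that carries endostatin, had 175 ± 17.9 CPM per kilobase of merged exons (SD, n = 6), and Fn1, which encodes fibronectin, had 111 ± 13.7. The small proteoglycans Dcn (25.0 ± 6.19) and Bgn (20.1 ± 4.15) came next on that scale, followed by Col5a3 (17.8 ± 3.67), Sparc (16.5 ± 3.64) and Tgfbi (13.3 ± 3.91), and the ranges of these 5 overlapped. The lowest was the large proteoglycan Vcan, at 0.0157 CPM per kilobase. Fn1 and Col18a1 together made 58.0% to 64.7% of the summed CPM of the 45 genes in Fra1 mutants and 69.9% to 74.9% in Fra1 controls. Neither gene was called in any comparison, so a sum over all 45 mostly reads these abundant transcripts, and the genes are described singly.

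**Figure D1:**
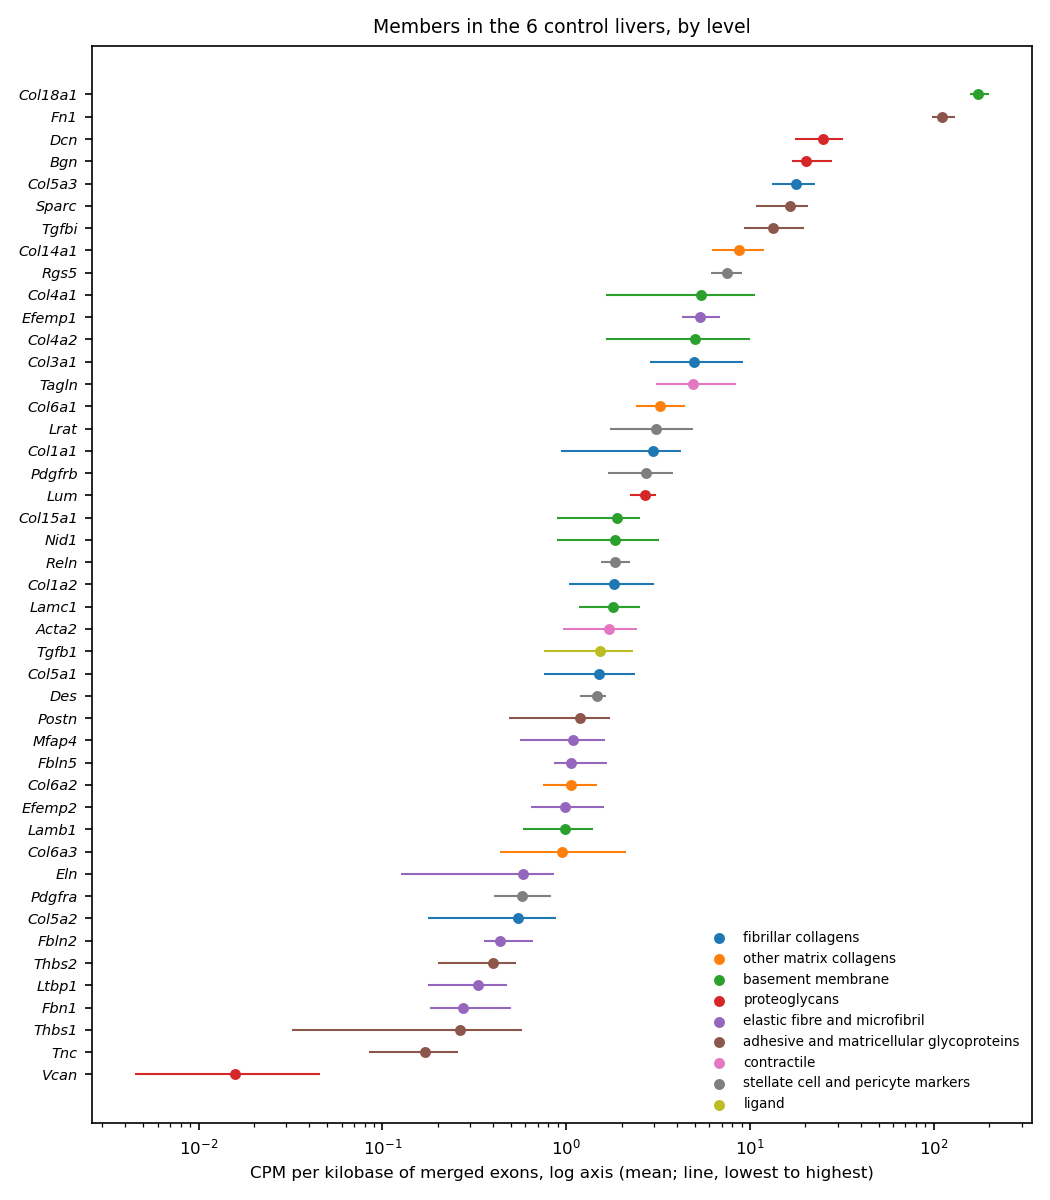
Level of each of the 45 genes in the 6 control livers, in CPM per kilobase of merged exons on a log axis. Points are means, lines run from the lowest to the highest liver, and colours mark the role; Col18a1 and Fn1 stand above 97 and all other genes below 33.

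In Fra1 mutants, 4 of the 45 genes rose and none fell: the basement membrane genes Lamc1 and Nid1, and the small leucine-rich proteoglycans Dcn and Lum. The call required a p, adjusted by Benjamini-Hochberg over the 14076 genes, below 0.05 in edgeR's quasi-likelihood test; 2.9% of these were called higher and 0.938% lower in Fra1 mutants, beside 8.89% and 0% of the 45. At an unadjusted p under 0.05 there were 19 of the 45 and 16.3% of all genes. DESeq2 called 10 of the 45, all higher: these 4 with Bgn, Col4a1, Col6a1, Lamb1, Sparc and Tgfbi. Over the 14076 genes DESeq2 called 678 higher and 343 lower, also more than edgeR. The log2 fold change was positive for 40 of the 45, against 51% of all genes, with a median of 0.76, against a median of 0.01 over all genes tested. In 19 of the 45 (42.2%) every Fra1 mutant lay above every Fra1 control, against 11.7% of all genes, and in none of the 45 did every mutant lie below, against 9.98% of all genes. The 5 genes with a log2 fold change below 0 were Acta2, Tagln, Des, Tgfb1 and Col18a1. The mice are separate animals, 3 a group, so each p rests on the spread between animals. That spread was estimated over all 4 groups and in part shared across genes, and litter and cage were not modelled.

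Lamc1 encodes the gamma 1 chain of laminin, which most laminin trimers of basement membrane contain. It lies at chromosome 1, 153218922 to 153332786, on the minus strand of GRCm38 (ENSMUSG00000026478.14). Lamc1 stood at 49.0, 49.7 and 52.2 CPM in Fra1 mutants and at 9.66, 16.7 and 14.4 CPM in Fra1 controls. All 3 mutants were above all 9 other livers of the study, and the mutants differed little among themselves. The log2 fold change was 1.88 ± 0.25 (SE; edgeR adjusted p = 0.0014), and the call held with each library left out in turn.

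Nid1 encodes nidogen 1, which links laminin to type IV collagen, and lies at chromosome 13, 13437551 to 13512269, on the plus strand (ENSMUSG00000005397.8). It stood at 78.3, 76.4 and 43.2 CPM in Fra1 mutants and at 6.20, 18.3 and 7.96 CPM in Fra1 controls. The groups did not overlap, and mutant 3 was the low one of its group. The log2 fold change was 2.6 ± 0.49 (edgeR adjusted p = 0.014). This call was lost without Fra1 control 1 or without Fra1 control 3 (highest adjusted p = 0.066) and with no filter on low counts (adjusted p = 0.065).

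The type IV collagen genes Col4a1 and Col4a2, which share a promoter region head to head and form the network of every basement membrane, were not called. Col4a1 had 50.7, 61.6 and 58.0 CPM in Fra1 mutants and 12.3, 35.3 and 26.4 CPM in Fra1 controls, so the groups did not overlap, with a log2 fold change of 1.20 ± 0.40 (adjusted p = 0.14). Col4a2 had 28.7, 27.7 and 39.9 CPM in Fra1 mutants and 10.8, 25.3 and 25.7 CPM in Fra1 controls, a log2 fold change of 0.64 ± 0.40 (adjusted p = 0.47). For both genes control 1 was the lowest of all 12 livers. Col15a1, a collagen at the junction of basement membrane and stroma, had 13.6, 7.90 and 18.5 CPM in Fra1 mutants and 10.8, 13.1 and 11.3 CPM in Fra1 controls, where the mutants lay on both sides of the controls. Lamb1, the laminin beta 1 chain, did not overlap (log2 fold change 0.90 ± 0.27, adjusted p = 0.10). Over the 7 basement membrane genes the median log2 fold change was 0.90, and the range ran from -0.14 in Col18a1 to 2.6 in Nid1.

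Decorin and lumican coat collagen fibrils and limit their thickness; Dcn and Lum lie on chromosome 10, Dcn at 97479609 to 97518143 and Lum at 97565128 to 97572703, both on the plus strand (ENSMUSG00000019929.16 and ENSMUSG00000036446.5). Dcn had 207, 222 and 191 CPM in Fra1 mutants and 102, 127 and 112 CPM in Fra1 controls. Every mutant was above every other liver of the study, and the log2 fold change was 0.86 ± 0.12 (edgeR adjusted p = 0.0024). Lum had 24.1, 13.2 and 13.2 CPM in Fra1 mutants and 6.14, 6.44 and 7.43 CPM in Fra1 controls. Mutant 1 was far above mutants 2 and 3 here, and these were still above all controls; the log2 fold change was 1.33 ± 0.23 (edgeR adjusted p = 0.0082). Both calls held with each library left out in turn.

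The third small proteoglycan, biglycan (Bgn), missed the threshold at an adjusted p of 0.054, with 205, 195 and 186 CPM in Fra1 mutants and 103, 130 and 115 CPM in Fra1 controls, a log2 fold change of 0.75 ± 0.19. Its groups did not overlap, and DESeq2 called it. Vcan, the large aggregating proteoglycan of provisional matrix, was near the limit of detection, with 9, 12 and 3 counts in Fra1 mutants and 1, 3 and 3 counts in Fra1 controls. No difference in Vcan was detectable at this depth. The summed CPM of the 4 proteoglycans was 390 to 436 in Fra1 mutants and 211 to 264 in Fra1 controls.

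No fibrillar collagen was called in Fra1 mutants, although all 6 log2 fold changes were positive, from 0.32 to 1.09, with a median of 0.76. Col1a1 and Col1a2 encode the chains of type I collagen, the main collagen of scar. Col1a1 had 41.7, 28.7 and 21.5 CPM in Fra1 mutants and 19.9, 27.8 and 20.1 CPM in Fra1 controls. The groups overlapped, and the log2 fold change was 0.44 ± 0.57 (adjusted p = 0.76). Col1a2 had 45.5, 40.2 and 32.0 CPM in Fra1 mutants and 20.9, 32.1 and 13.8 CPM in Fra1 controls, a log2 fold change of 0.81 ± 0.45 (adjusted p = 0.40). Col3a1, the type III chain that is mixed with type I in reticular fibres, had 105, 112 and 58.0 CPM in Fra1 mutants and 35.1, 65.8 and 28.0 CPM in Fra1 controls (log2 fold change 1.09 ± 0.56, adjusted p = 0.36). In both, control 2 reached the lowest mutant, and control 2 was the highest control for 36 of the 45 genes. Unlike these 3, Col5a3 did not overlap between the groups, at 118, 137 and 127 CPM in Fra1 mutants and 90.0, 110 and 105 CPM in Fra1 controls, but its log2 fold change was only 0.32 ± 0.14 (adjusted p = 0.26).

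Type VI collagen forms beaded filaments around cells and is built from 3 different chains. Col6a1 had 21.8, 21.0 and 22 CPM in Fra1 mutants and 12, 14.8 and 10.4 CPM in Fra1 controls, a log2 fold change of 0.80 ± 0.22 (adjusted p = 0.071). Col6a3 had 21.6, 17.4 and 21.1 CPM in Fra1 mutants and 5.22, 14 and 8.13 CPM in Fra1 controls, a log2 fold change of 1.13 ± 0.60 (adjusted p = 0.39). The groups did not overlap for either chain, nor for Col6a2 (log2 fold change 0.79 ± 0.29), and none of the 3 passed the test. Of the 4 genes in this role, Col14a1 was the one whose groups overlapped.

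**Figure D2:**
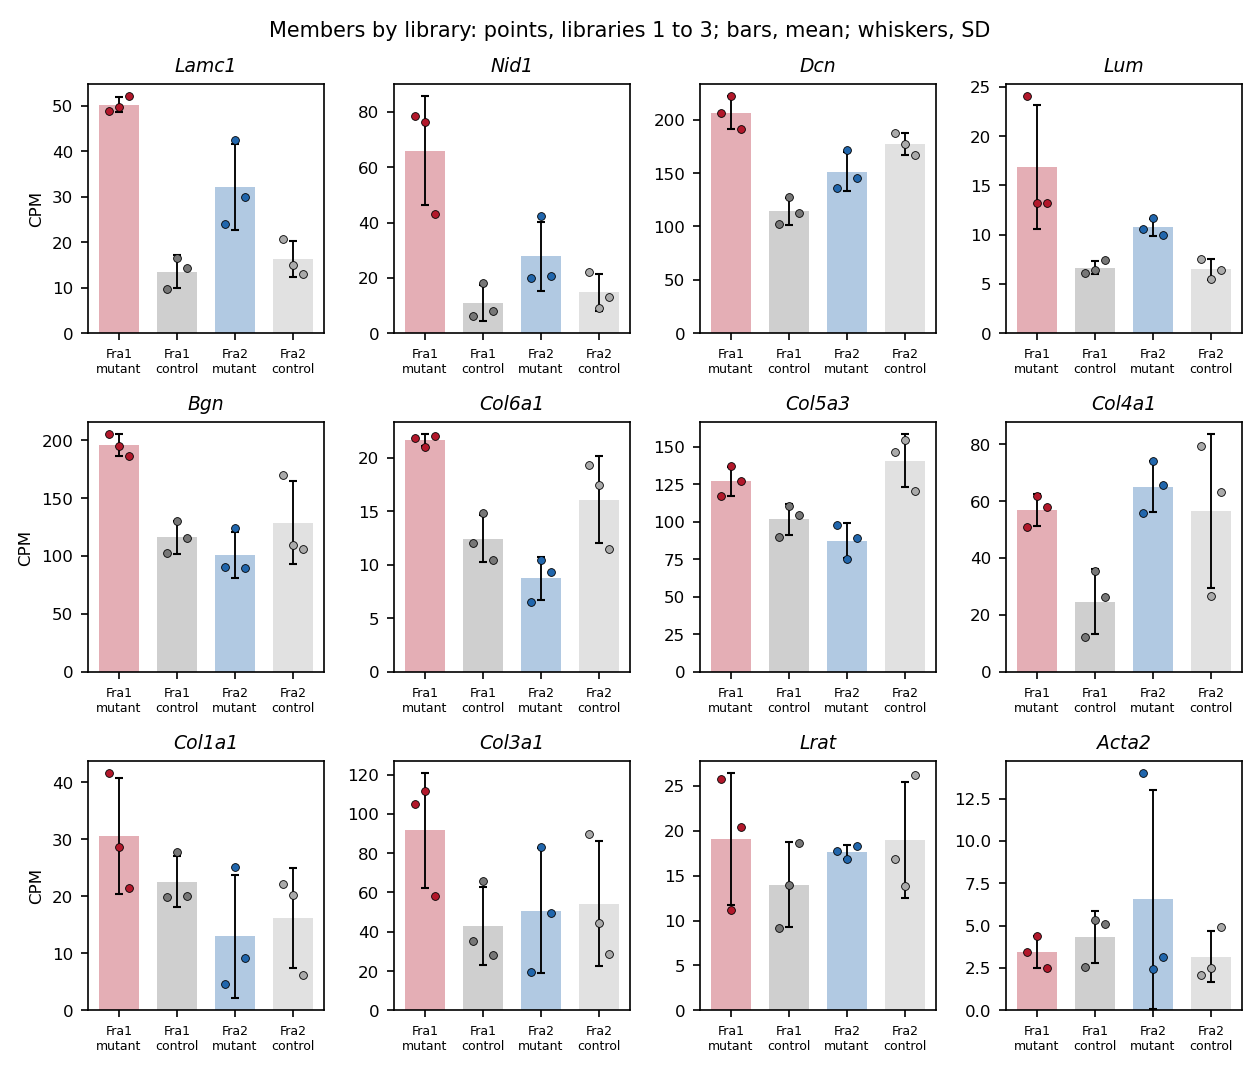
CPM of 12 of the 45 genes in each library. Points are libraries 1 to 3, bars are means and whiskers are SD, with mutants left of the controls of the same strain; each axis starts at 0. Lamc1, Nid1, Dcn, Lum, Bgn and Col6a1 are higher in the 3 Fra1 mutants than in all 9 other livers, while Col1a1, Col3a1, Lrat and Acta2 overlap between mutants and controls in both strains.

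Of the 15 elastic fibre, microfibril, adhesive and matricellular genes, none was called in Fra1 mutants, and all 15 log2 fold changes were positive. The largest among elastic fibre genes were 0.97 ± 0.47 for Fbln2, a fibulin of vessel walls, and 0.96 ± 0.42 for Fbn1, the fibrillin of microfibrils. Elastin (Eln) had 12.4, 9.06 and 7.62 CPM in Fra1 mutants and 3.92, 6.93 and 5.60 CPM in Fra1 controls, which did not overlap, with a log2 fold change of 0.82 ± 0.49 (adjusted p = 0.45). Thbs1, the thrombospondin that can activate latent transforming growth factor beta, had 13.3, 1.58 and 1.57 CPM in Fra1 mutants and 0.196, 2.41 and 1.51 CPM in Fra1 controls. The high mean of the Thbs1 mutants came from mutant 1, and the other two lay within the controls. Mutant 1 was the highest Fra1 mutant for 26 of the 45 genes. The collagen-binding glycoprotein Sparc (log2 fold change 0.82 ± 0.23, adjusted p = 0.076) and Tgfbi (0.92 ± 0.26, adjusted p = 0.087) lay higher in all 3 Fra1 mutants than in all 3 Fra1 controls.

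The stellate cell and pericyte markers gave no call in Fra1 mutants, and their median log2 fold change was 0.45, against 0.76 for fibrillar collagens and 0.90 for basement membrane genes. With a library left out, these medians ran from 0.30 to 0.57, from 0.51 to 1.17 and from 0.76 to 1.20, in that order. The range of the fibrillar collagens thus overlapped those of both other roles. Lrat, the enzyme that stores retinol as esters and marks quiescent stellate cells, had 25.7, 11.2 and 20.4 CPM in Fra1 mutants and 9.21, 14 and 18.7 CPM in Fra1 controls, which overlapped. Reln, a secreted glycoprotein of stellate cells, had 55.6, 50.8 and 47.3 CPM in Fra1 mutants and 40.2, 38.1 and 36.5 CPM in Fra1 controls. The Reln groups did not overlap, and the log2 fold change was 0.42 ± 0.16 (adjusted p = 0.19). Rgs5, a pericyte regulator of G protein signalling, had 44.0, 79.7 and 40.5 CPM in Fra1 mutants and 27.8, 38.2 and 30.6 CPM in Fra1 controls, a log2 fold change of 0.76 ± 0.26 (adjusted p = 0.15). Pdgfrb, the receptor through which platelet-derived growth factor drives stellate cell growth, had 23.3, 19.7 and 12.9 CPM in Fra1 mutants and 9.21, 18.1 and 12.4 CPM in Fra1 controls, which overlapped. The intermediate filament gene Des had 6.40, 5.69 and 5.28 CPM in Fra1 mutants and 5.49, 6.19 and 5.97 CPM in Fra1 controls, a log2 fold change of -0.02 ± 0.19.

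The contractile genes and Tgfb1 were not called in Fra1 mutants. Acta2, the smooth muscle actin that marks activated stellate cells, had 3.45, 4.37 and 2.49 CPM in Fra1 mutants and 2.55, 5.31 and 5.11 CPM in Fra1 controls, a log2 fold change of -0.34 ± 0.61 with a range of 2 SE from -1.56 to 0.89. Tagln had a log2 fold change of -0.60 ± 0.47; 62.4% of its exon bases are shared with an antisense gene, and no source used here gives the strand setting of the counting. Tgfb1, the ligand itself, had 5.58, 13.9 and 4.67 CPM in Fra1 mutants and 5.94, 7.81 and 10.8 CPM in Fra1 controls, which lay on both sides of each other.

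Markers of other cells moved as follows with these values, and their part in the results was not tested. None of 18 further stellate cell markers was called in Fra1 mutants by edgeR (4 at an unadjusted p under 0.05); 15 had positive log2 fold changes, with a median of 0.29, and their summed CPM was 801 to 842 in Fra1 mutants and 723 to 807 in Fra1 controls. Of 6 portal fibroblast and mesothelial markers tested, Entpd2, an ectonucleotidase of portal fibroblasts that other cells also express, rose (log2 fold change 2.98 ± 0.22, edgeR adjusted p = 3.7e-05), and the other 5 were not called; the summed CPM of the list was 69.6 to 92.3 in Fra1 mutants and 81.6 to 105 in Fra1 controls. Markers of smooth muscle summed to 12.4 to 18.7 CPM in Fra1 mutants and 5.29 to 11.6 CPM in Fra1 controls, with none of 3 called. The cholangiocyte list, none of 6 called, stood at 330, 29.5 and 164 CPM in Fra1 mutants and at 76.1 to 106 CPM in Fra1 controls. Lists of sinusoidal endothelial cells, macrophages, lymphocytes and hepatocytes had no call in Fra1 mutants. Of 8 hepatocyte markers, 4 were at an unadjusted p under 0.05 in edgeR, and 5 log2 fold changes were negative and 3 positive. Their summed CPM was 72688, 106808 and 54714 in Fra1 mutants and 87702 to 124717 in Fra1 controls. The counted share of reads over the quality limit was 63.4% to 75.4% in Fra1 mutants and 76.8% to 90.3% in Fra1 controls.

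**Figure D3:**
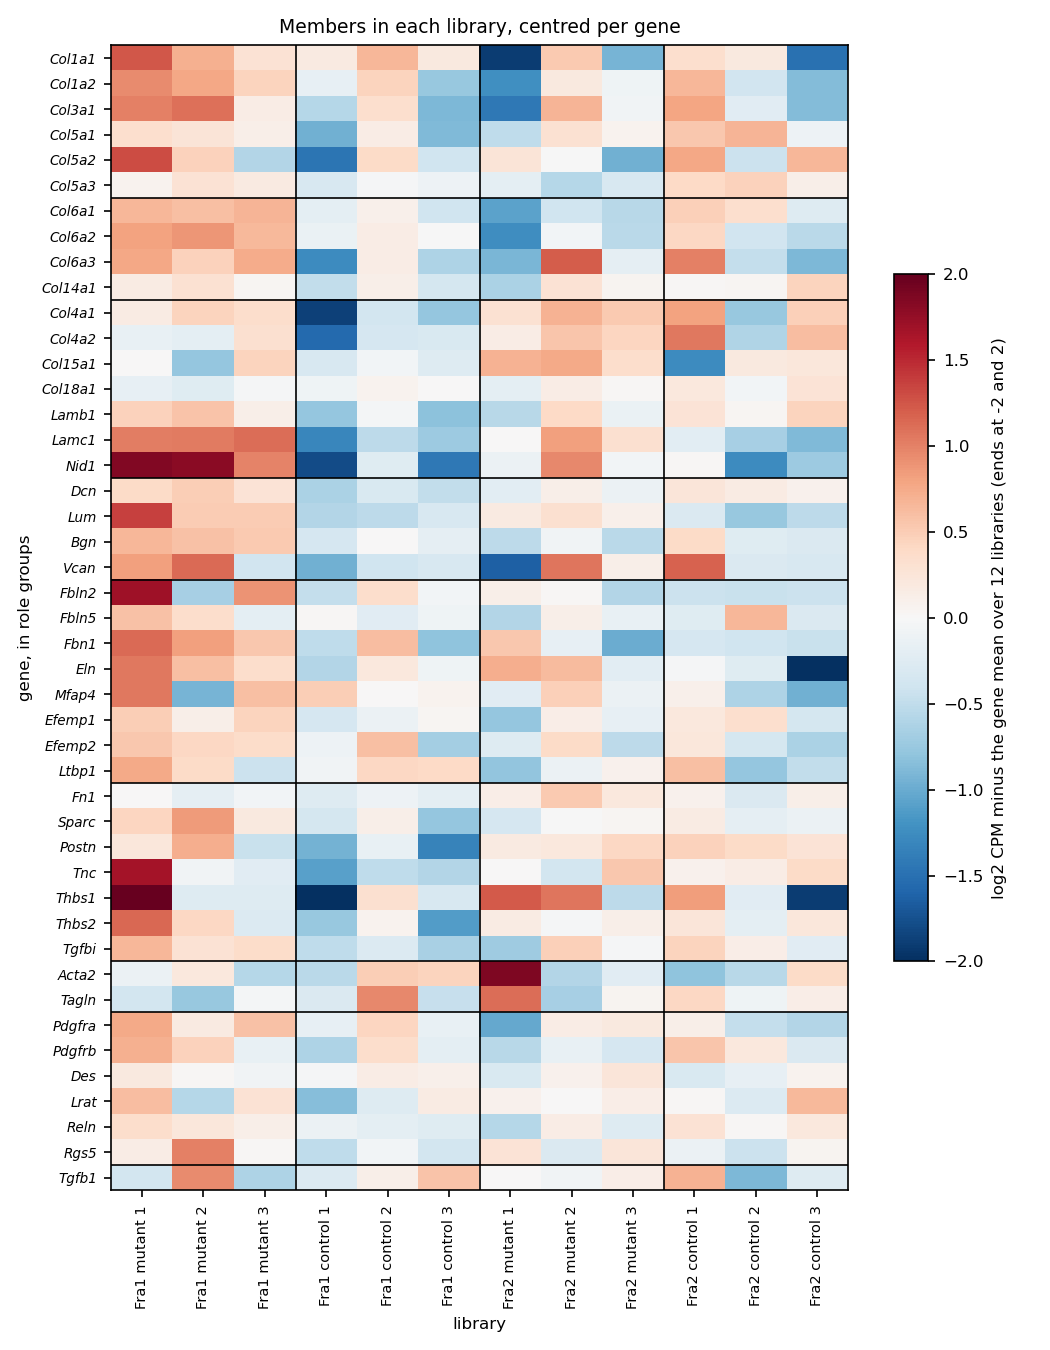
Each of the 45 genes in each of the 12 libraries, as log2 CPM minus the gene's mean over all libraries; red is above the mean and blue below, and black lines part the roles and the groups. The median over the 45 genes was 0.20 to 0.66 in Fra1 mutants, -0.50 to 0.08 in Fra1 controls, -0.22 to 0.15 in Fra2 mutants and -0.26 to 0.25 in Fra2 controls.

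In Fra2 mutants, whose treatment label gives 9 months, none of the 45 genes rose and 1 fell, the fibrillar collagen gene Col5a3. Over all genes tested, 0.845% were called higher and 0.22% lower, beside 0% and 2.22% of the 45, and at an unadjusted p under 0.05 there were 5 of the 45 against 11.5% of all genes. Of the log2 fold changes, 19 were positive (49.1% of all genes were) and 26 negative, with a median of -0.10. In 4 genes (8.89%) every Fra2 mutant lay above every Fra2 control, against 9.31% of all genes, namely Col15a1, Fn1, Lamc1 and Lum. In 2 genes (4.44%), Col5a3 and Col6a1, every mutant lay below, against 8.17% of all genes. Both shares of genes without overlap were under that of all genes. The sign of the median turned with single libraries left out: it was 0.046 without Fra2 mutant 1 and 0.25 without Fra2 control 1, the highest control for 30 of the 45 genes. With Fra2 control 3 as the 1 Fra2 control the median was 0.13. DESeq2 called Lamc1 higher and Col5a3 and Col6a1 lower, among 315 higher and 133 lower over all genes tested.

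Col5a3, the third chain of the type V collagen that sits inside fibrils, lies at chromosome 9, 20770050 to 20815067, on the minus strand (ENSMUSG00000004098.7). It had 98.0, 75.1 and 89.4 CPM in Fra2 mutants and 147, 154 and 121 CPM in Fra2 controls. The groups did not overlap, and the log2 fold change was -0.69 ± 0.14 (edgeR adjusted p = 0.039). The call was lost without Fra2 control 1 or 2 and without any of the 3 Fra2 mutants, with adjusted p from 0.045 to 0.15 over the 6 libraries left out. Against Fra2 control 3 alone the log2 fold change was -0.47 (adjusted p = 0.55, with the spread taken from the other groups). Fra2 controls 1 and 2 were above all Fra1 livers, with 118 to 137 CPM in Fra1 mutants and 90.0 to 110 CPM in Fra1 controls, and Fra2 control 3 lay within the range of the Fra1 mutants.

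The other fibrillar collagens had log2 fold changes from -0.59 to -0.09 in Fra2 mutants, none of them called. Col1a1 had 4.61, 25.1 and 9.14 CPM in Fra2 mutants and 22.2, 20.2 and 6.15 CPM in Fra2 controls. Col3a1 had 19.3, 83.3 and 49.7 CPM in Fra2 mutants and 89.8, 44.3 and 28.6 CPM in Fra2 controls, and Col1a2 had 9.99, 26.8 and 22.1 CPM in Fra2 mutants and 37.3, 17.9 and 12.8 CPM in Fra2 controls. Spread within a group exceeded the difference between groups in all 3 genes, with mutant 2 high and mutant 1 low. Fra2 control 3 was the lowest control for all 3 genes, and against it alone the log2 fold changes were 1.07 for Col1a1, 0.83 for Col3a1 and 0.61 for Col1a2.

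No type VI collagen chain was called in Fra2 mutants. Col6a1 had 6.48, 10.4 and 9.29 CPM in Fra2 mutants and 19.3, 17.4 and 11.5 CPM in Fra2 controls, a log2 fold change of -0.88 ± 0.22 (adjusted p = 0.11). Col6a3 had 6.60, 29.4 and 11.1 CPM in Fra2 mutants and 25.3, 9.04 and 6.69 CPM in Fra2 controls, a log2 fold change of 0.20 ± 0.59. Col6a2 had 3.80, 8.78 and 6.28 CPM in Fra2 mutants and 12.2, 6.98 and 6.26 CPM in Fra2 controls, a log2 fold change of -0.43 ± 0.30 (adjusted p = 0.66). The Col6a1 groups stood apart, and those of the other two chains overlapped.

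Among basement membrane genes, Lamc1 had 24.1, 42.5 and 30.0 CPM in Fra2 mutants and 20.8, 15.1 and 13.0 CPM in Fra2 controls, a log2 fold change of 0.98 ± 0.24 (adjusted p = 0.10). Nid1 had 20.1, 42.3 and 20.9 CPM in Fra2 mutants and 22.1, 8.99 and 13.1 CPM in Fra2 controls, a log2 fold change of 0.91 ± 0.47 (adjusted p = 0.51). The Lamc1 groups did not overlap, while Fra2 control 1 exceeded 2 of the Nid1 mutants. Col15a1 had 22.1, 23.0 and 17.4 CPM in Fra2 mutants and 5.63, 15.5 and 16.0 CPM in Fra2 controls, also without overlap (log2 fold change 0.75 ± 0.37, adjusted p = 0.48). Col4a1 had 55.8, 73.9 and 65.5 CPM in Fra2 mutants and 79.4, 26.7 and 63.3 CPM in Fra2 controls, and Col4a2 had 35.3, 47.1 and 43.1 CPM in Fra2 mutants and 66.4, 21.0 and 49.1 CPM in Fra2 controls. For both type IV chains the Fra2 controls enclosed the mutants.

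Of the proteoglycans, Lum had 10.6, 11.7 and 9.97 CPM in Fra2 mutants and 7.57, 5.47 and 6.42 CPM in Fra2 controls, without overlap (log2 fold change 0.73 ± 0.23, adjusted p = 0.22). Dcn had 136, 171 and 146 CPM in Fra2 mutants and 188, 177 and 167 CPM in Fra2 controls, a log2 fold change of -0.23 ± 0.12 (adjusted p = 0.53). Dcn mutant 2 lay above control 3, so these groups overlapped. Vcan had 0, 11 and 5 counts in Fra2 mutants and 12, 3 and 3 counts in Fra2 controls. Eln had 9.87, 9.33 and 5.14 CPM in Fra2 mutants and 5.85, 5.02 and 1.03 CPM in Fra2 controls (log2 fold change 1.03 ± 0.50, adjusted p = 0.47), and Thbs1 had 4.61, 4.15 and 1.30 CPM in Fra2 mutants and 3.48, 1.62 and 0.432 CPM in Fra2 controls. Both Eln and Thbs1 overlapped, with Fra2 control 3 the lowest control of each.

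The stellate, contractile and ligand genes gave no call in Fra2 mutants. Lrat had 17.8, 16.9 and 18.3 CPM in Fra2 mutants and 16.9, 13.8 and 26.2 CPM in Fra2 controls, and Reln had 29.3, 47.9 and 36.3 CPM in Fra2 mutants and 52.8, 44.3 and 50.3 CPM in Fra2 controls. Pdgfrb had 9.64, 12.9 and 11.3 CPM in Fra2 mutants and 20.9, 16.6 and 11.7 CPM in Fra2 controls, with a log2 fold change of -0.54 ± 0.29 (adjusted p = 0.54). All 3 overlapped. Rgs5 had 47.9, 32.5 and 46.7 CPM in Fra2 mutants and 36.5, 29.5 and 41.4 CPM in Fra2 controls, and Des had 4.50, 5.89 and 6.59 CPM in Fra2 mutants and 4.47, 4.97 and 5.88 CPM in Fra2 controls. Acta2 had 14, 2.45 and 3.17 CPM in Fra2 mutants and 2.10, 2.51 and 4.91 CPM in Fra2 controls. Mutant 1 made the Acta2 difference of 1.04 ± 0.61 on the log2 scale, which was -0.18 without it, and mutant 1 was also high for Tagln, at 18.5 CPM. Tgfb1 had 7.24, 6.87 and 7.89 CPM in Fra2 mutants and 11.7, 3.80 and 5.99 CPM in Fra2 controls, where the controls enclosed the mutants. The 18 further stellate markers had no call by edgeR (3 at an unadjusted p under 0.05) and a median of -0.29, and their summed CPM was 646 to 769 in Fra2 mutants and 824 to 872 in Fra2 controls. That summed level stood apart between the groups. The summed CPM of the 6 stellate and pericyte markers above overlapped, at 112 to 126 in Fra2 mutants and 114 to 139 in Fra2 controls, and their median log2 fold change was 0.02. The part of these levels in the collagen values was not tested. Summed hepatocyte markers were 61473 to 73659 CPM in Fra2 mutants and 106636 to 130892 CPM in Fra2 controls, with none of 8 called, and their part was not tested either; averaged over strains Apoa1 fell (-1.02 ± 0.23, edgeR adjusted p = 0.022; kept in 8 of 12 fits without a library). The counted share of reads over the quality limit was 68.3% to 75.6% in Fra2 mutants and 75.8% to 84.6% in Fra2 controls, and its part was not tested. No member of the lists of smooth muscle, sinusoidal endothelial cells, macrophages, cholangiocytes or lymphocytes was called in Fra2 mutants.

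**Figure D4:**
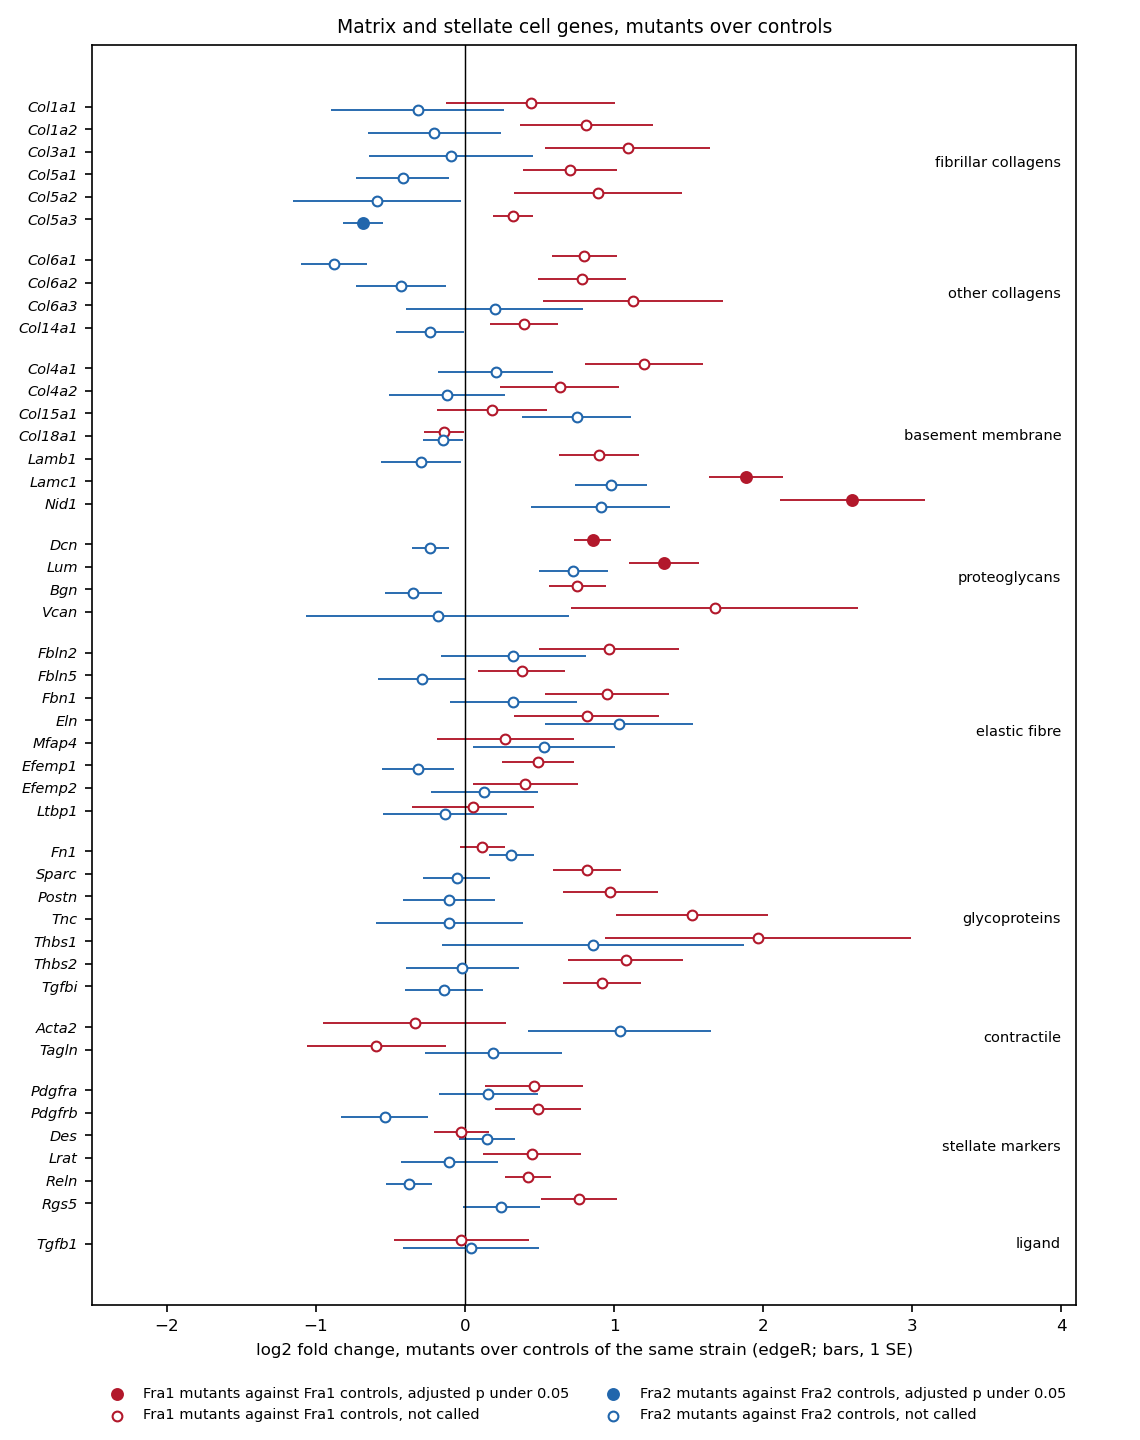
Log2 fold change of each of the 45 genes, mutants over controls of the same strain, with Fra1 in red above Fra2 in blue and bars of 1 SE from edgeR. Filled points were called, namely Lamc1, Nid1, Dcn and Lum in Fra1 mutants and Col5a3 in Fra2 mutants. In this fit of all libraries 25 genes are positive in red and negative in blue, a pattern not counted over all genes.

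Whether the strains' responses differ was tested as the Fra2 effect minus the Fra1 effect. No gene of the 45 was called by edgeR, against 0.0355% of all genes. At an unadjusted p under 0.05 there were 16 of the 45, against 6.32% of all genes. DESeq2 called Bgn, Col5a3, Col6a1 and Dcn lower, among 47 lower and 22 higher over all genes, and limma-voom none. The median difference was -0.81 on the log2 scale, and 25 of the 45 genes were positive in Fra1 mutants and negative in Fra2 mutants. This pattern of signs was not counted over all genes, and it rests on the Fra2 controls. In Fra2 mutants 19 of the 45 were positive, but 27 without Fra2 control 1 and 29 without Fra2 controls 1 and 2. The differences nearest to the threshold were -1.09 ± 0.17 for Dcn (edgeR adjusted p = 0.064), -1.68 ± 0.31 for Col6a1 (0.17) and -1.01 ± 0.19 for Col5a3 (0.18). With no filter on low counts Dcn and Col6a1 were called, the Dcn adjusted p being 0.049. Col6a1 and Col5a3 were the genes in which every Fra1 mutant lay above and every Fra2 mutant below its controls, 4.44% of the 45 against 0.27% of all genes. For Lamc1 the difference was -0.90 ± 0.34 (adjusted p = 0.69), for Nid1 -1.69 ± 0.66 (adjusted p = 0.71) and for Lum -0.61 ± 0.33 (adjusted p = 0.83). These p miss the threshold, which does not show that the strains acted alike.

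Averaged over both strains, Lamc1 (log2 fold change 1.43 ± 0.17, edgeR adjusted p = 0.00053), Nid1 (1.76 ± 0.34, 0.010) and Lum (1.03 ± 0.16, 0.0032) rose and none of the 45 fell, 6.67% and 0% against 4.33% called higher and 1.9% lower over all genes. This average uses the same libraries as the strain comparisons and adds no independent evidence. The 3 calls held with each of the 12 libraries left out in turn. Nid1 was lost with no filter on low counts (edgeR adjusted p = 0.053) and in the fit with Fra2 control 3 as the 1 Fra2 control. Lamc1 and Lum were kept in both, and in the second of these fits Eln was called as well. Dcn, called in Fra1 mutants, had 0.31 ± 0.09 here (adjusted p = 0.059).

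The control groups were compared because the effects start from them. Between Fra2 controls and Fra1 controls edgeR called 0 of the 45 genes and 0% of all genes. At an unadjusted p under 0.05 there were 9 of the 45, against 5.35% of all genes. DESeq2 called Dcn, among 17 higher and 1 lower over all genes, and limma-voom none. In 8 genes (17.8%) every Fra2 control lay above every Fra1 control, against 5.28% of all genes, and in none below, against 4.82%. The 8 were Col5a3, Dcn, Lamb1, Postn, Reln, Tgfbi, Tnc and Vcan. Vcan is among them only through library scaling, with 12, 3 and 3 counts in Fra2 controls and 1, 3 and 3 counts in Fra1 controls. Dcn stood at 188, 177 and 167 CPM in Fra2 controls and at 102, 127 and 112 CPM in Fra1 controls, a log2 difference of 0.64 ± 0.12 (edgeR adjusted p = 0.55). Postn, which encodes periostin, stood at 15.1, 14.3 and 13.3 CPM in Fra2 controls and at 5.62, 9.83 and 4.25 CPM in Fra1 controls, a log2 difference of 1.11 ± 0.32 (adjusted p = 0.87). In 6 genes, Col5a3, Dcn, Lamb1, Reln, Tgfbi and Tnc, both the Fra1 mutants and the Fra2 controls lay wholly above the Fra1 controls, 13.3% of the 45 against 1.96% of all genes. The median log2 difference of the 45 genes between the control groups was 0.25, with 31 positive. With Fra2 control 3 as the 1 Fra2 control this median was -0.0018, with 22 positive. Strain, litter and cage cannot be told apart in this comparison. For 8 genes, Bgn, Col6a1, Col6a2, Dcn, Lamc1, Lum, Nid1 and Sparc, the 3 Fra1 mutants lay above all 9 other livers, the Fra2 controls included, 17.8% of the 45 against 2.52% of all genes.

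Other genes of the collagen and matrix pathway were read from 5 lists. Of 21 genes for collagen modification, folding and processing tested, none was called in Fra1 mutants or in Fra2 mutants by edgeR (7 and 1 at an unadjusted p under 0.05), and averaged over strains P4hb (0.78 ± 0.17, edgeR adjusted p = 0.017) and the collagen chaperone Serpinh1 (0.71 ± 0.19, adjusted p = 0.0495) rose. The Serpinh1 call was kept in 2 of 12 fits without a library and the P4hb call in 11. Of 5 crosslinking enzymes, Lox (2.44 ± 0.48, adjusted p = 0.016) and Loxl2 (1.82 ± 0.43, adjusted p = 0.037) rose in Fra1 mutants and none was called in Fra2 mutants. Lox rested on 32, 27 and 10 counts in Fra1 mutants and 3, 5 and 4 counts in Fra1 controls. Both calls were lost with single libraries left out, Lox in 4 of 6 and Loxl2 in 5 of 6 such fits. Of 10 other collagens tested, Col12a1, which decorates type I fibrils, rose in Fra1 mutants (1.69 ± 0.36, adjusted p = 0.023; lost in 5 of 6 fits without a library), and averaged over strains Col12a1 rose (1.46 ± 0.25) and Col27a1 fell (-0.66 ± 0.17, adjusted p = 0.044; kept in 2 of 12 such fits).

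Of 21 genes of transforming growth factor beta and platelet-derived growth factor signalling, Tgfbr2, the type II receptor that binds the ligand, rose in both strains and no other was called in either. Tgfbr2 had 145, 99.8 and 134 CPM in Fra1 mutants against 19.6, 20.0 and 20.4 CPM in Fra1 controls (log2 fold change 2.66 ± 0.19, edgeR adjusted p = 2.8e-05). It had 86.2, 132 and 114 CPM in Fra2 mutants against 33.8, 25.5 and 28.3 CPM in Fra2 controls (1.92 ± 0.18, adjusted p = 0.00069). All mutants of both strains were above all 6 controls, while Tgfb1 stayed between 3.80 and 13.9 CPM over the 12 livers. Of 15 matrix receptor genes tested, 3 rose in Fra1 mutants: the collagen receptor Ddr1 (3.17 ± 0.48, adjusted p = 0.0039) and the integrin chains Itgb5 (0.95 ± 0.13, adjusted p = 0.0015) and Itgav (0.82 ± 0.18, adjusted p = 0.026), which pair as a vitronectin receptor. Ddr1 stood at 17.4, 25.0 and 40.1 CPM in Fra1 mutants and at 2.42, 3.59 and 3.12 CPM in Fra1 controls. The 3 were not called in Fra2 mutants, with log2 fold changes of 1.25 ± 0.47 for Ddr1, 0.52 ± 0.13 for Itgb5 and 0.57 ± 0.18 for Itgav, and the difference between strains was not called for any of them. The Itgav call in Fra1 mutants was lost in 4 of 6 fits without a library. Averaged over strains all 3 rose and Sdc2 fell (-0.34 ± 0.07, adjusted p = 0.020; kept in 9 of 12 fits without a library). Entpd2, from the portal fibroblast list, also rose in Fra2 mutants, with 13.4, 19.5 and 15.2 CPM in Fra2 mutants and 4.47, 3.96 and 2.65 CPM in Fra2 controls (2.11 ± 0.22, adjusted p = 0.0010).

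**Figure D5:**
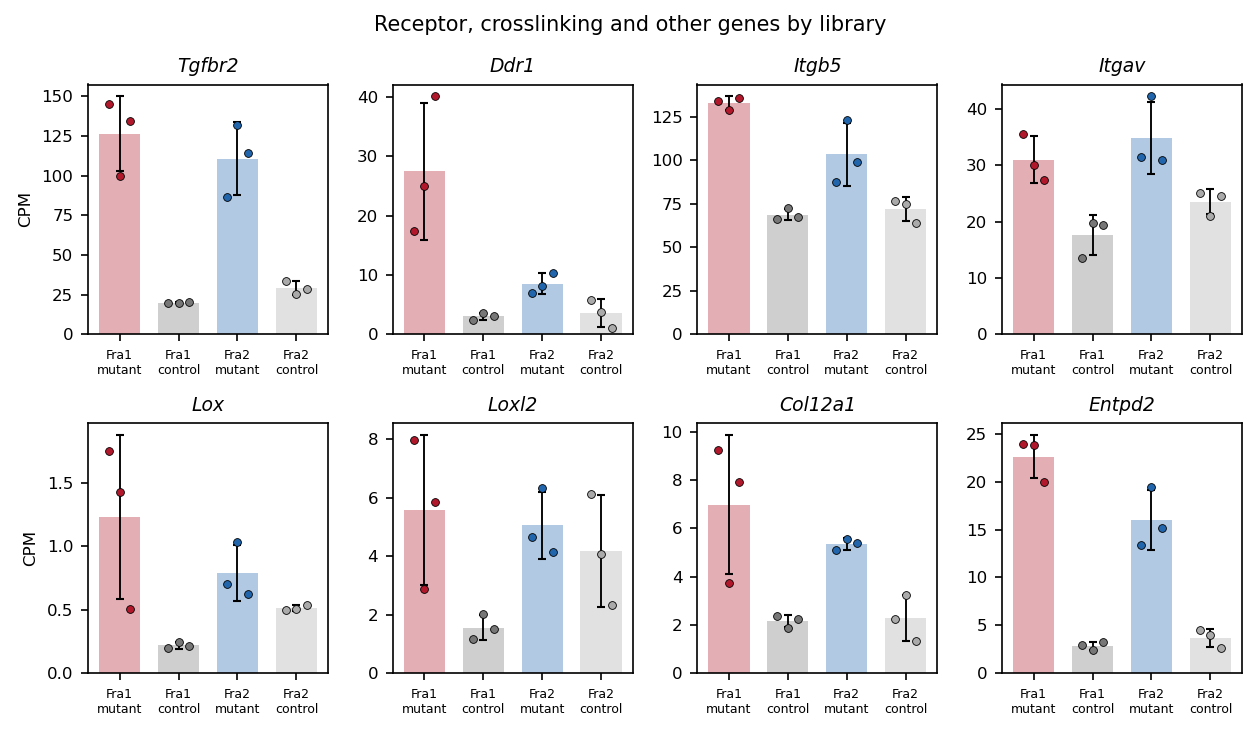
CPM of receptor genes (Tgfbr2, Ddr1, Itgb5, Itgav), crosslinking enzymes (Lox, Loxl2), Col12a1 and Entpd2 in each library; points are libraries 1 to 3, bars means and whiskers SD, mutants left of controls. Tgfbr2 lies between 86.2 and 145 CPM in the 6 mutants and between 19.6 and 33.8 CPM in the 6 controls, while Lox stays under 2 CPM throughout.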

How the data were processed

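Liver RNA of 12 mice was extracted with Trizol, enriched for polyadenylated RNA and made into stranded libraries, per the labels' protocols. The authors deposited raw counts per gene, whole numbers with no normalization, in a single table. The submitters' processing notes name bedtools 2.27.1, STAR 2.6.1a, DESeq2 1.22.2 and RSEM, with the build GRCm38 (mm10). No source used here gives their roles, the annotation, the strand setting or how reads shared between genes were handled. On other strands, 16 of the 45 genes overlap another gene, in 2 of them (Fbn1 and Tagln) over more than 10% of their exon bases, and those counts are uncertain.

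From the counts, filterByExpr by group kept 14076 of 55421 genes, and a model with 4 group means over all 12 libraries was fitted in edgeR 4.0.16 (R 4.3.3; TMM factors, robust quasi-likelihood, two-sided tests, Benjamini-Hochberg over all genes). Standard errors were derived from the test statistic. Alternatives used RLE or no factors, DESeq2 1.42.0, limma-voom (limma 3.58.1), other filters, only the compared libraries, the replicate number as a block and each library left out; leaving out Fra2 controls 1 and 2 together was chosen after seeing the data. Gene positions and lengths are from GENCODE M21 on GRCm38. Totals were 16834041 to 20464807 counts per library, so genes with a few counts, such as Vcan, are measured poorly. No pair of libraries within a group was within sampling noise (lowest chi-square per degree of freedom 28.3 of 12 pairs). The scripts were tested on simulated data.

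The 45 genes and all lists were chosen with earlier results of these data known. Values per library are given for the genes called in any comparison, for a fixed set of type I, III, IV, VI and XV collagen, stellate, contractile and ligand genes and for the gene with the largest change in each role; up to 4 called genes are named per pathway list.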

Additional observations from a re-analysis of the deposited data

How the results depend on the processing

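With 3 mice a group, a call depended on the spread between animals as well as on the size of the change. In Fra1 mutants Dcn was called at a log2 fold change of 0.86, while Col4a1 at 1.20 and Thbs1 at 1.97 were not. A gene that was not called may therefore have changed as much as a called one. The number of the 45 genes called in Fra1 mutants, 4, was 7 with no scaling factor and 10 with DESeq2. It was 8 with only the compared libraries and 3 to 6 with a library left out. Over all genes, no scaling factor gave 674 calls higher and 102 lower and moved the median to 0.15. Only the compared libraries gave 330 higher and 90 lower. With a library left out, 215 to 334 were higher and 52 to 110 lower over all genes. In Fra2 mutants the count, 1, was 0 with no scaling factor, 3 with DESeq2, 0 with only the compared libraries, 0 without Fra2 controls 1 and 2 together, which leaves 1 Fra2 control assumed to vary like the other groups, and 0 to 1 with a library left out. For the difference between strains, 0 became 4 with DESeq2, 2 with no filter and 0 to 1 with a library left out (Col6a1 without Fra2 control 3), and for the controls 0 became 1 with DESeq2. The count for the average over strains, 3, was 2 with no filter and 3 to 4 with a library left out. Over all genes, no filter gave 537 higher and 221 lower for the average and 1 higher and 8 lower for the difference. With a library left out the average had 437 to 602 higher and 160 to 301 lower, and Fra2 mutants had 45 to 84 higher and 7 to 29 lower. The cause of these changes in counts was not tested. The median of the 45 genes ran from -0.19 to 0.25 in Fra2 mutants and from -1.07 to -0.64 for the difference with a library left out. Directions were followed singly only for a part of the 45 genes. Among these, directions in Fra2 mutants turned against Fra2 control 3 alone (without Fra2 controls 1 and 2) for Col1a1 (1.07), Col1a2 (0.61), Col3a1 (0.83), Des (-0.0594) and Vcan (0.81). With no scaling factor they turned for Des (0.11) and Tgfb1 (0.10) in Fra1 mutants. For Col4a2 in Fra2 mutants the log2 fold change was 0.0206 with limma-voom. With a library left out, log2 fold changes in Fra2 mutants ran from -0.18 to 1.5 for Acta2, -1.23 to 0.0811 for Col1a1, -0.50 to 0.36 for Col1a2, -0.65 to 0.48 for Col3a1, -0.13 to 0.53 for Col4a1, -0.47 to 0.25 for Col4a2, -0.63 to 0.99 for Col6a3, -0.29 to 0.20 for Lrat, -0.27 to 0.58 for Tgfb1 and -1.25 to 0.79 for Vcan; in Fra1 mutants they ran from -0.14 to 0.45 for Col15a1, -0.11 to 0.022 for Des and -0.68 to 0.23 for Tgfb1. Same-numbered mutants and controls did not deviate together over all genes (r from -0.12 to 0.06 in 6 pairs). With 3 mice a group this cannot show whether the numbers pair the mice. With the replicate number as a block, 6 genes were called in Fra1 mutants, 0 in Fra2 mutants, 0 for the difference and 4 for the average, and Col4a2 in Fra2 mutants stood at 0.00647. Over all genes the block gave 288 higher and 83 lower in Fra1 mutants and 78 higher and 20 lower in Fra2 mutants. For the difference it gave 1 higher and 4 lower, and for the average 458 higher and 173 lower. With the longest transcript as gene length, 9 of the 10 genes highest per length were kept.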
